A study of Mus musculus with 2 samples.

Results

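CD8 T cells are the cytotoxic T cells of the adaptive immune system. They carry an alpha-beta T-cell receptor and the CD8 co-receptor, which binds MHC class I on the cell being inspected, and they kill by releasing granzymes and perforin from secretory granules. Some circulate through blood and lymph, following S1pr1 and Ccr7, while others settle in epithelial organs such as the mammary gland, where Cd69, Itgae, Itga1 and Cxcr6 mark residency. Here the cells were chosen by their own transcript counts. A droplet barcode was taken as a CD8 T cell if it held at least 500 genes, at most 15% mitochondrial UMIs (unique molecular identifiers, the counted transcripts), at least 2 UMIs of Cd3d, Cd3e and Cd3g together, at least 1 UMI of Cd8a and Cd8b1 together and 0 of Cd4. Cells with 3 or more Lyz2 UMIs, or with 10 or more UMIs of Krt8, Krt18 and Krt14 together, were left out. This gave 267 CD8 T cells among 15632 cells, 54 of 6297 in the control library and 213 of 9335 in the treated library.

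The study asked what becomes of the mammary gland when its macrophages are removed. Mammary cells of adult wild-type female mice, labelled as 9 to 10 weeks old, were sorted to include CD45+ immune cells and CD31-TER119- cells and were run as droplet single-cell libraries, 1 for control mice (Ctrl) and 1 for mice injected with clodronate liposomes (CL), which kill phagocytes that swallow them. The protocol gave the lower age as 8 weeks for both groups. Neither the number of mice behind a library nor the mixing proportion of the sorted fractions was stated, and the cells had been stored before loading. With 1 library per group there was no replicate, so Ctrl and CL were compared by values with 95% intervals that cover counting error only, and treatment, animal and library cannot be told apart. In CD8 T cells the libraries held 304242 (Ctrl) and 1202180 (CL) UMIs, with medians of 4990.5 and 4970 UMIs and of 1847.5 and 1797 genes per cell, and 0 barcode columns were CD8 T cells in both libraries, against 12 shared by all cells kept. Macrophage genes were also measured over all cells kept. Levels are CPM, the UMIs of a gene scaled to a common library total. Lyz2 measured 12.3 CPM in Ctrl and 135 in CL, Csf1r 2.96 and 4.77, and Adgre1 1.41 and 2.77. C1qa was 14.7 CPM in Ctrl and 20.4 in CL, C1qb 15.6 and 23.2, and C1qc 10.4 and 14.3. The sum of 10 macrophage and monocyte genes was 753 CPM in Ctrl and 708 in CL, or 740.5 and 573 without Lyz2. The genes named here were thus higher in CL. The sums, which also hold other genes of the list such as Cd14, Cd68 and Fcgr3, were lower. Such levels over all cells do not count macrophages, and the CL label was not tested by them.

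The members carried the genes of their name. Cd3d, Cd3g, Trac and Trbc2, parts of the T-cell receptor complex, reached 713, 1045, 565 and 1683 CPM in Ctrl and 816, 741, 609 and 1536 in CL. The markers that accompany the rule, Ccl5 and Gzmb, were found in 50 and 35 of 54 Ctrl cells and in 204 and 144 of 213 CL cells. Since the rule used Cd3, Cd8, Lyz2 and the keratins, their levels are a description. Cd8a (272.8 and 200.5 CPM) was found without Cd8b1 in 14 and 39 cells, Cd8b1 (328.7 and 360.2 CPM) without Cd8a in 17 and 89, and both chains in 23 and 85. The macrophage and monocyte list summed to 49.3 and 48.2 CPM, against 639 and 658 in empty droplets. Of its 10 genes C1qa, C1qb, C1qc and Csf1r had 0 UMIs in Ctrl and between 1 and 2 each in CL, and Adgre1 had 0 in both. Lyz2, which the rule limits, had 0 and 1, Cd68 had 2 and 19, Cd14 2 and 8 and Fcgr3 4 and 4. The B-cell list summed to 52.6 and 49.9 CPM, against 3.81 and 78.6 in empty droplets. Of its genes Ighm had 12 and 11 UMIs, Igkc 2 and 46 and Cd79b 2 and 3, while Ms4a1 and Cd79a had 0 in both libraries. The fibroblast list summed to 39.4 and 14.1 CPM, with 9 Dcn UMIs in each library and 0 of Pdgfra, against 620.4 and 313 in empty droplets. The MHC class II and dendritic list summed to 23.0 CPM in Ctrl and 62.4 in CL, a log2 ratio of 1.44 (0.33 to 2.80). Empty droplets held 370 and 762 CPM of it. Krt8, also limited by the rule, was at 332 and 307 CPM, against 5403 and 5902 in empty droplets. By 6 epithelial genes, free RNA made up an estimated 6.76% (Ctrl) and 6.64% (CL) of the UMIs of the CD8 T cells.

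The edges of the rule were soft. Of the members, 18 (Ctrl) and 55 (CL) held exactly 1 Cd8 UMI, and 5 and 6 held exactly 2 Cd3 UMIs, against medians of 2 Cd8 and of 10 and 8 Cd3 UMIs. Just outside lay 45 and 210 cells with Cd3 but neither Cd8 nor Cd4, 1 and 4 cells with Cd8 but a single Cd3 UMI, 6 and 38 cells over the keratin limit, and 0 and 1 over the Lyz2 limit. No T cell had Cd8 and Cd4 together.

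CD8 T cells took a larger share of the cells in the CL library. They were 0.858% of all cells kept in Ctrl (exact Clopper-Pearson interval 0.645 to 1.12%, 54 cells) and 2.28% in CL (1.99 to 2.61%, 213 cells), a log2 ratio of 1.41 (0.97 to 1.87). Among the CD8 T, CD4 T, Trdc T and natural killer (NK) cells together their share was alike. They were 71.1% of these in Ctrl (54 of 76) and 70.3% in CL (213 of 303). The log2 ratio was -0.02, with an interval from -0.45 to 0.44. Of cells with at least 2 Cd3 UMIs, under the same Lyz2 and keratin limits, they were 51.9% and 46.0%. That log2 ratio was -0.17 (-0.61 to 0.28). CD4 T cells were 5 and 40 cells, T cells with the delta-chain gene Trdc and neither co-receptor 7 and 23, and NK cells 10 and 27. The sort and the mixing of CD45+ cells can set every one of these shares of all cells, and their part in the difference was not tested.

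The level of each effector gene and that in empty droplets are shown together in the plot of gene levels. Between the libraries, 1211 genes outside the rule had at least 50 CPM and 20 UMIs in the library where they were higher and at least 2 times the empty-droplet level there. Of these, 18 (1.49%) were at least 2-fold higher in CL and 31 (2.56%) at least 2-fold lower, with a median log2 ratio of 0.00 and a range from -0.84 (5th percentile) to 0.68 (95th). The balance of the counts depended on the minimum. Without ribosomal and mitochondrial genes in the total, which lets more low genes pass it, 47 of 1384 genes were higher and 30 lower.

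**Figure D1:**
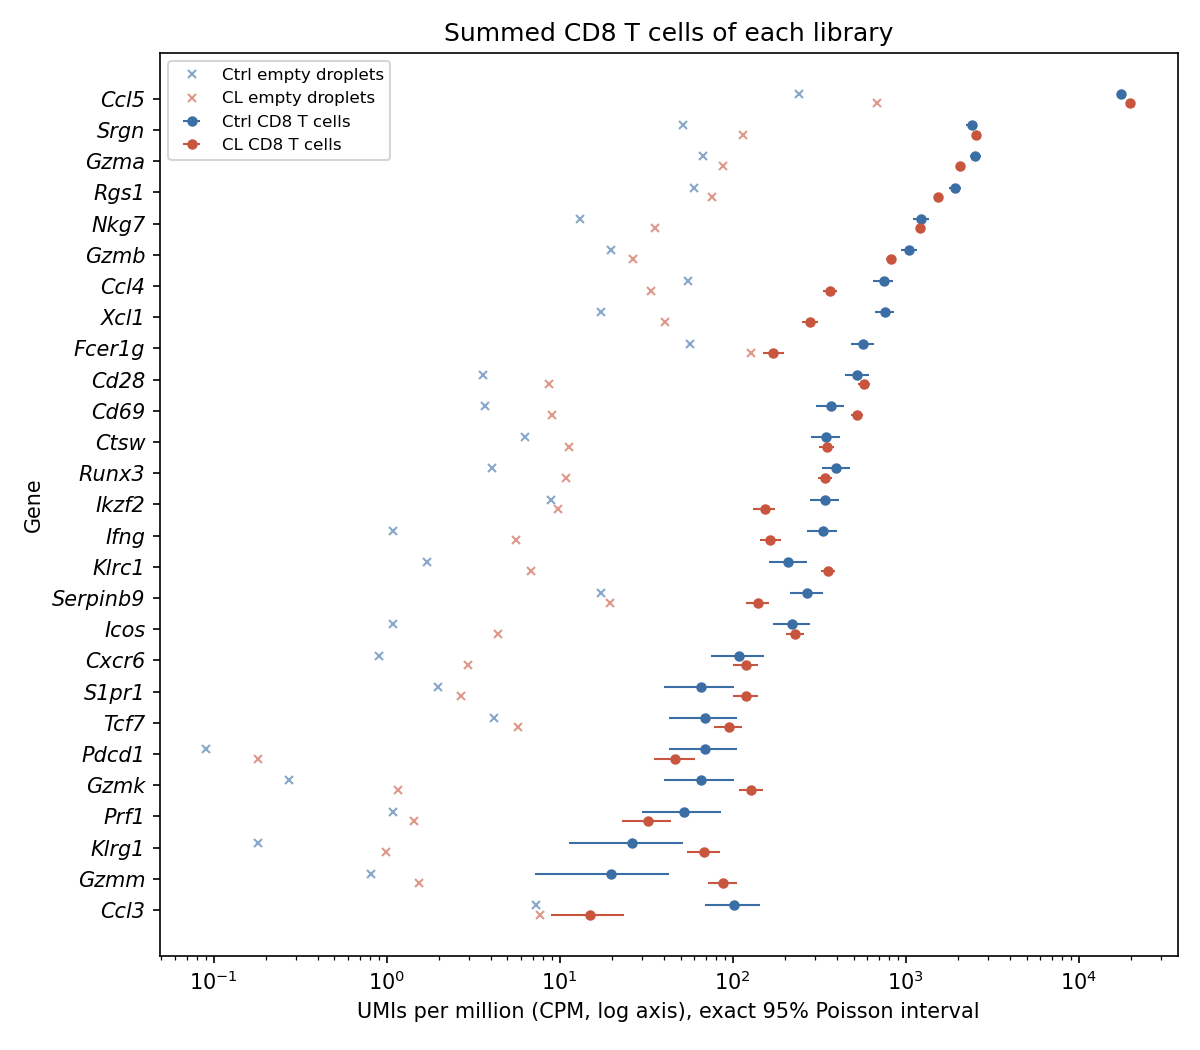
Level of named genes in the summed CD8 T cells of Ctrl (blue, 54 cells) and CL (red, 213 cells), as CPM on a log axis with exact 95% Poisson intervals; crosses give the same gene in empty droplets. Ccl5 lies far to the right of every other gene in both libraries, Xcl1, Ccl4, Ifng and Ikzf2 are lower in CL, and Gzmm, Gzmk and Klrg1 are higher.

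Ccl5, a chemokine that draws T cells and monocytes, was by far the most abundant effector transcript. It took 17549 CPM in Ctrl and 19894 in CL, a log2 ratio of 0.18 (0.14 to 0.22), and the median cell held 78 and 99 Ccl5 UMIs. Empty droplets held 243 and 683 CPM. The other 4 genes of the list that could be compared were lower in CL. Ccl4, a chemokine that attracts monocytes and T cells, was 746 CPM in Ctrl and 366 in CL, a log2 ratio of -1.03 (-1.26 to -0.79). Xcl1, the ligand of the receptor on cross-presenting dendritic cells, was 756 and 281 CPM, a ratio of -1.43 (-1.67 to -1.18). Ifng, the macrophage-activating cytokine, was 332 and 166 CPM, a ratio that lies at the 2-fold limit (-1.36 to -0.64). Ccl3 was 102 and 15.0 CPM, close to its empty-droplet level of 7.75 CPM in CL.

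Of the 11 genes of the chemokine and cytokine list, 5 could be compared, and 4 of them were past 2-fold lower and 0 higher, with a list median over the genes with 20 UMIs of -1.02 against 0.02 over all 6352 such genes. Their sum, which is mostly Ccl5, had a log2 ratio of 0.09 (0.05 to 0.13). These transcripts were unevenly spread over the Ctrl cells. Ccl4, Xcl1 and Ifng were found in 21, 19 and 21 of its 54 cells and Ccl3 in 4. The richest Ctrl cell alone held 79 of 227 Ccl4 UMIs, 27 of 101 Ifng UMIs and 18 of 31 Ccl3 UMIs. Without the richest cell of each library the ratio was -0.55 for Ccl4 and -0.65 for Ifng, no longer 2-fold, and -1.31 for Xcl1 and -2.00 for Ccl3. Lta and Csf2 had 0 UMIs in both libraries, for which 3 UMIs would be 9.86 (Ctrl) and 2.50 CPM (CL).

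With all cells, the granule genes were alike in sum. The 12 genes of the cytotoxic granule list added up to 8431 CPM in Ctrl and 7794 in CL, a log2 ratio of -0.11 (-0.18 to -0.05). Of the 10 that could be compared, 1 was 2-fold higher and 0 lower. The sum turned to 0.21 (0.13 to 0.29) without cells holding 2 or more Fcer1g UMIs, described below. With stricter Lyz2 and keratin limits it was 0.69. Gzma, a granzyme that cleaves after basic residues, was 2531 CPM in Ctrl and 2065 in CL, and its ratio of -0.29 became -0.05 without the richest cell of each library, which held 169 and 148 Gzma UMIs. Without the cells holding 2 or more Fcer1g UMIs the Gzma ratio was 0.79 (0.60 to 0.97). Gzmb, the granzyme that activates caspases, was 1049 and 819 CPM (log2 ratio -0.36, -0.54 to -0.17). Nkg7, needed for granule release, was 1226 and 1213 CPM, Srgn, the granule proteoglycan, 2409 and 2554, and Ctsw, a cathepsin of killer cells, 345 and 349. Prf1, the pore former, was low at 52.6 and 32.4 CPM.

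The granzymes differed among themselves. Gzmm was 19.7 CPM in Ctrl (6 UMIs in 6 cells) and 88.2 in CL (106 UMIs in 54 cells), a log2 ratio of 2.16 (0.99 to 3.64), the one granule gene past 2-fold. Gzmk, typical of memory-like effector cells, was 65.7 and 128 CPM, a ratio of 0.96 (0.29 to 1.71). Serpinb9, the inhibitor that shields a killer cell from its own granzyme B, was 270 and 140 CPM, a ratio of -0.95 (-1.34 to -0.55). Without cells holding 2 or more Fcer1g UMIs the Serpinb9 ratio was -0.01 (-0.61 to 0.65). Cells with no Gzma and no Gzmb UMI were 17 of 54 in Ctrl and 58 of 213 in CL, or 21 of 48 and 68 of 192 once every cell was thinned to 2943 UMIs and 6 and 21 shallower cells were left out.

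The sequences before the starts of Gzmb, Gzma and Xcl1 are shown because these genes carry the effector results, and because Runx and T-box factors, among them Runx3, Tbx21 and Eomes, are the known regulators of this programme in CD8 T cells. Each window is the 250 bases before the RefSeq start on GRCm38.p6, written 5′ to 3′ on the gene's strand, with matches to TGTGGT (Runx) or TCACAC (T-box) on either strand in capitals. Gzmb is at chr14:56262335-56262584 on the minus strand, Gzma at chr13:113100982-113101231 on the minus strand, and Xcl1 at chr1:164935523-164935772 on the minus strand.
Gzmb: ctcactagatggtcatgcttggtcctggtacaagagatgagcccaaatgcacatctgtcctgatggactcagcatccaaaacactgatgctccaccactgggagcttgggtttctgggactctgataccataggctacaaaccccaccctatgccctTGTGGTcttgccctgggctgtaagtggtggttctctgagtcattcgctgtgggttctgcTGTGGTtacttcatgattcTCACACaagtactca
Gzma: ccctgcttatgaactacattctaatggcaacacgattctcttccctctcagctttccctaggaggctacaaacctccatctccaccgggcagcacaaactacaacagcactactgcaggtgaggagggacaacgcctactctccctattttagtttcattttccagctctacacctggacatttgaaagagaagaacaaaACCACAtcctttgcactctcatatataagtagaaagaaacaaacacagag
Xcl1: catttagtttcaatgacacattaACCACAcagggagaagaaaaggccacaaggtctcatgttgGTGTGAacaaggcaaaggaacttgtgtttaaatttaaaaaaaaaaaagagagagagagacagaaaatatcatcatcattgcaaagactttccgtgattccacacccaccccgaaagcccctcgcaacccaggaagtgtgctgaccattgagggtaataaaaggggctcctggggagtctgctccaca

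The Gzmb window held 2 Runx matches, beginning 93 and 34 bases before the start, and 1 T-box match beginning 15 bases before it. Gzma held 1 Runx match at 50 bases and no T-box match. Xcl1 held a Runx match at 227 bases and a T-box match at 187. The Runx letters stood in 14.05% of the 32851 promoters of the table, the T-box letters in 12.29% and both in 2.05%, so a match is a description and not a binding site. Runx3 itself was 398 CPM in Ctrl and 342 in CL, Tbx21 128 and 95.7, and Eomes 42.7 and 78.2.

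The T-cell receptor complex and signalling list was alike in sum. Without Cd3d, Cd3e and Cd3g, which the rule used, its 13 genes summed to 5667 CPM in Ctrl and 5786 in CL, a log2 ratio of 0.03 (-0.05 to 0.11), and of these 13 genes 0 were 2-fold higher and 0 lower. The co-stimulatory receptor Cd28 was 526 and 575 CPM, and Cd5 and Cd6, brakes on receptor signalling, were 105 and 121 and 214 and 187 CPM. Receptor variable genes were sparsely counted, with 13 Trbv UMIs in 9 Ctrl cells and 43 in 35 CL cells. Trbv12-2 led in both libraries with 4 and 9 UMIs. Among alpha chains, Trav16 held 18 of the 41 Trav UMIs in CL, spread over 10 cells.

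NK receptors formed the list with calls in both directions. Of 9 genes compared, 1 was at least 2-fold higher in CL and 3 at least 2-fold lower, and the sum was 1729 CPM in Ctrl and 1381 in CL (log2 ratio -0.32, -0.47 to -0.18). Klrg1, a marker of terminal effector cells, was 26.3 and 68.2 CPM, a ratio of 1.38 (0.33 to 2.63), and Klrc1, which forms the inhibitory NKG2A receptor, was 210 and 358 CPM, a ratio of 0.77 (0.38 to 1.17). On the other side stood Fcer1g and Tyrobp, the adaptor proteins that couple NK receptors to kinases, and Klra7, a Ly49 receptor. Fcer1g was 565 CPM in Ctrl and 172 in CL (log2 ratio -1.72, -2.01 to -1.41), Tyrobp 177 and 69.9 (-1.34, -1.86 to -0.82), and Klra7 98.6 and 26.6 (-1.89, -2.65 to -1.12). Empty droplets of CL held 128 CPM of Fcer1g, near the level in its CD8 T cells, and 56.5 CPM in Ctrl.

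Fcer1g was unevenly spread over the cells. In all, 44 of 54 Ctrl cells and 187 of 213 CL cells held 0 UMIs and 0 and 8 held a single one, whereas 9 and 13 cells held 7 or more, up to 41 and 29. The plot of Fcer1g in each cell shows these separate cells. With a limit of 2 UMIs, set after the values were seen, 10 Ctrl cells (18.5%, exact interval 9.25 to 31.4%) and 18 CL cells (8.45%, 5.09 to 13.03%) were Fcer1g-positive, or 9 of 48 and 14 of 192 at equal depth. Before thinning, the log2 ratio between the shares of Fcer1g-positive cells was -1.13 (-2.32 to 0.15), an interval that included 0. CD4 T cells, which should lack the gene and had median depths of 4877 and 4890.5 UMIs, held 0 of 5 and 1 of 40 such cells, Trdc T cells 5 of 7 and 10 of 23, and NK cells 9 of 10 and 26 of 27.

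**Figure D2:**
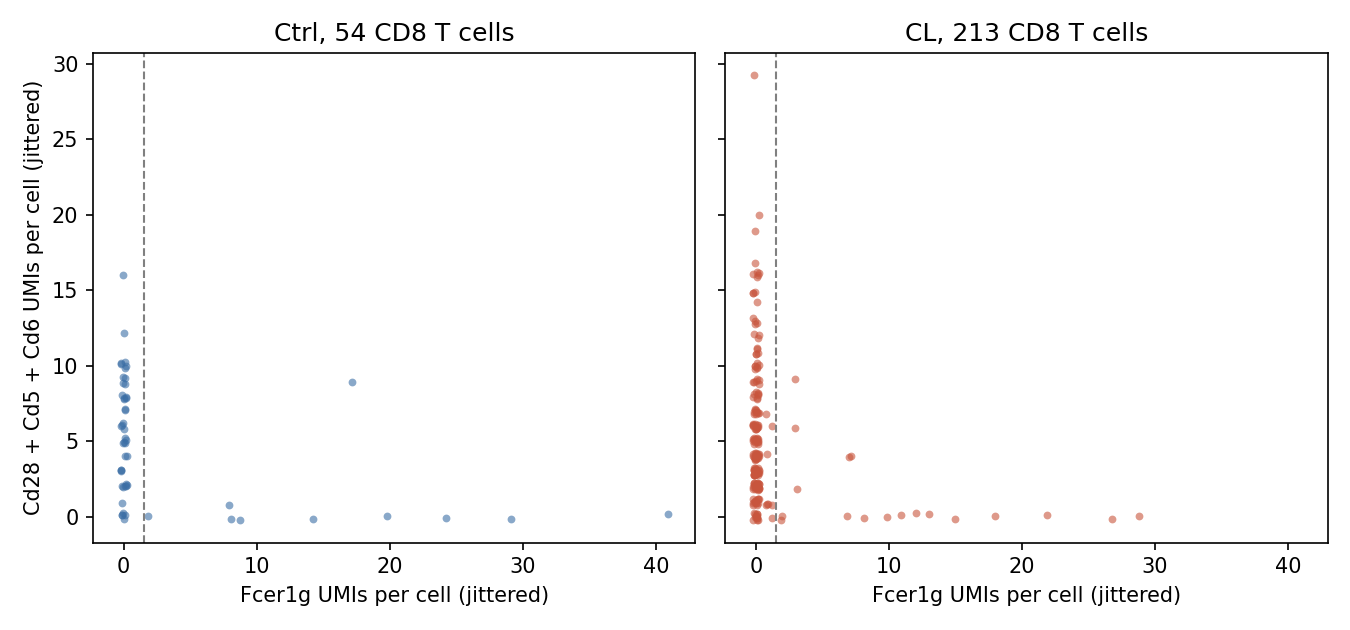
Each point is 1 CD8 T cell of Ctrl (left) or CL (right), placed by its Fcer1g UMIs and by the summed UMIs of Cd28, Cd5 and Cd6, with jitter; the dashed line separates cells with at least 2 Fcer1g UMIs. The 10 and 18 cells to the right of the line lie at 0 on the other axis in 8 and 13 cases, whereas the other cells reach 16 and 29 UMIs.

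What follows describes these cells as chosen and carries no test. Some of the genes named are among those with the largest differences in both libraries, and the others were taken from the gene lists. Tyrobp was 732 CPM in the Fcer1g-positive cells of Ctrl against 0 in the other CD8 T cells, and 618 against 7.41 in CL. Ikzf2, the Helios transcription factor, was 1192 against 69.4 CPM in Ctrl and 1243 against 28.7 in CL. Xcl1 was 1965 against 369 and 2137 against 69.5, Cd7 1206 against 200 and 983 against 67.6, and Tnfrsf9, the co-stimulatory receptor 4-1BB, 826 against 169 and 1300 against 37.1. The transcription factor Runx3 was also higher in them, 921 against 230.0 and 723 against 298 CPM, as was the IL-2 receptor chain Il2rb (1545 against 447, and 1430 against 415). Itgae, the CD103 integrin, had 4 UMIs in these cells and 1 in the others of Ctrl, too few to compare, and 8 and 4 in CL (65.0 against 3.71 CPM).

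The genes of the T-cell receptor list, without Cd3d, Cd3e and Cd3g, summed to 4241 against 6123 CPM in Ctrl and 3535 against 6043 in CL, but its members differed. Cd28 was 135 against 651 CPM in Ctrl and 130.0 against 626 in CL, and Cd6 0 against 282 and 48.8 against 203. Ccl4 was 40.6 against 972 and 65.0 against 400.3. Cd8b1 was 108 against 399 and 154 against 384, and was found in 3 of 10 and 6 of 18 of these cells against 37 of 44 and 168 of 195 of the others, while Cd8a was 352 against 247 and 268 against 193 CPM. The receptor chain Trac was 501 against 586 and 569 against 613 CPM, the kinase Zap70 135 against 108 and 146 against 81.5, and Cd3g 1666 against 846 and 1219 against 687. NK receptors were also mixed. Klre1 was 285 against 39.1 and 219 against 55.6 CPM, whereas Klrc1 was 135 against 234 and 130.0 against 384, and Klrc2 94.8 against 117 and 56.9 against 165. Trac was found in 9 of 10 and 17 of 18 of them, and Trdc in 1 and 0. Gzmk had 0 and 1 UMIs in them. Their median depth of 6221.5 and 6190 UMIs was above the 4704.5 and 4657 of the others.

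Leaving the Fcer1g-positive cells out turned the sign of several sums, as the plot of list ratios shows. Fcer1g and Tyrobp belong to the NK receptor list, so its change to 0.48 (0.25 to 0.70) follows in part from the choice of cells. With all cells kept and only these 2 genes left out, the list gave 986 CPM in Ctrl and 1139 in CL, a log2 ratio of 0.21 (0.03 to 0.39). Without the Fcer1g-positive cells the cytotoxic granule sum was 0.21 (0.13 to 0.29), the residency sum 0.10 (-0.04 to 0.24) and the chemokine sum -0.08 (-0.13 to -0.04). With 0 Lyz2 UMIs and under 3 keratin UMIs required, which left 22 and 103 cells, the cytotoxic granule sum (0.69) and the NK receptor sum (0.60) also turned sign. With the stated limits and only the Fcer1g-positive cells left out (44 and 195 cells remained), Gzma went from -0.29 to 0.79 (0.60 to 0.97) and Serpinb9 from -0.95 to -0.01 (-0.61 to 0.65). In the same 44 and 195 cells Xcl1 was at -2.41, Ccl4 at -1.28, Ifng at -1.21 and Ccl3 at -2.96. A single Ctrl cell held 54 of the 85 Xcl1 UMIs left there and 1 held 79 of 224 Ccl4 UMIs, and with the richest cell of each library also left out the ratios were -1.28, -0.80, -0.84 and -2.13, so Ccl4 and Ifng were within 2-fold. Gzmm was at 1.90 and Klrg1 at 1.11.

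**Figure D3:**
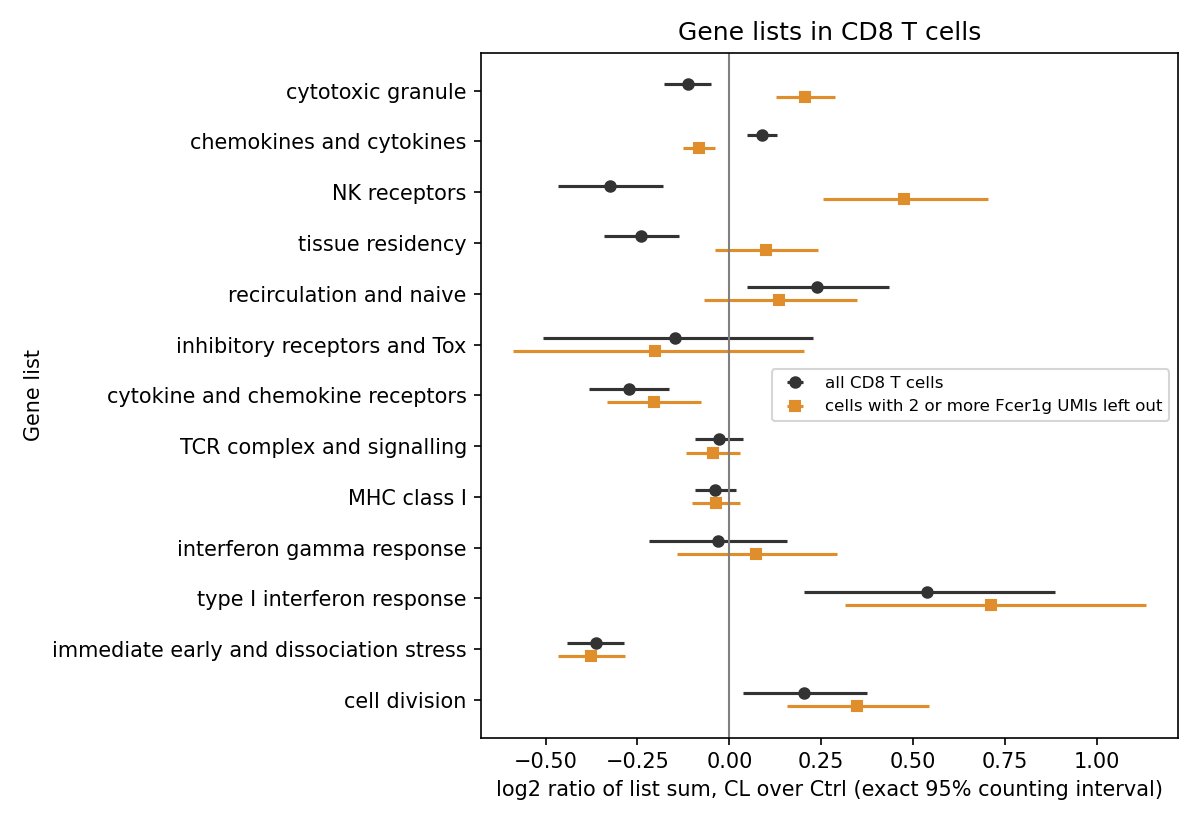
Log2 ratio, CL over Ctrl, of the summed CPM of each gene list in CD8 T cells, with exact 95% counting intervals, for all CD8 T cells (black circles) and without cells holding 2 or more Fcer1g UMIs (orange squares). The NK receptor, cytotoxic granule and residency sums lie below 0 with all cells and above 0 without those cells. Fcer1g is itself a gene of the NK receptor list.

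Residency and recirculation genes described overlapping ranges of cells. Cells with at least 2 UMIs of Itgae, Itga1, Cxcr6 and Zfp683 together and under 2 of a recirculation set that includes Ccr7, S1pr1 and Lef1 (resident type) were 9 of 54 in Ctrl (16.7%, 7.92 to 29.3%) and 35 of 213 in CL (16.4%, 11.7 to 22.1%). The reverse (recirculating type) held 9 in Ctrl (16.7%, 7.92 to 29.3%) and 51 in CL (23.9%, 18.4 to 30.3%), and 31 and 113 cells were of neither type. In CL the resident-type share was 9.39% with a limit of 3 UMIs and 3.29% without Cxcr6, and the recirculating-type share 12.5% with cells thinned before the rule. These are ranges of a count, not cell types, and 18 and 73 cells lay within 1 UMI of the limit for the residency genes and 18 and 87 for the others. Resident-type cells were rich in Rgs1, a brake on chemokine receptors, with 4788 CPM in Ctrl and 3700.0 in CL against 449 and 719 in recirculating-type cells, and 2749 and 1375 against 449 and 742 without the Fcer1g-positive cells. Klf2, the transcription factor that turns on S1pr1, was 139 and 307 CPM in resident-type cells against 344 and 633, though its empty-droplet level was 386 and 404. Resident-type cells overlapped with the Fcer1g-positive ones, which were 5 of 9 in Ctrl and 8 of 35 in CL and held 109 of the 144 and 207 of the 268 Gzmb UMIs. Gzmb was 2498 and 1469 CPM in resident-type against 553 and 574 in recirculating-type cells, but without the Fcer1g-positive cells it was 1233 against 553 in Ctrl (4 and 9 cells) and 461 against 540.1 in CL, where the order turned. Gzma was 5430 against 449 CPM in Ctrl, where 3 Fcer1g-positive cells held 301 of the 313 resident-type UMIs, and 423 against 449 without them. In CL it was 1074 against 1920, and 1458 against 1812 without them.

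The residency list summed to 3366 CPM in Ctrl and 2851 in CL (log2 ratio -0.24, -0.34 to -0.14) and the recirculation list to 884 and 1044 (0.24, 0.05 to 0.44). Without the Fcer1g-positive cells these ratios were 0.10 (-0.04 to 0.24) and 0.14 (-0.07 to 0.35). Of 5 residency genes compared 0 were 2-fold higher or lower, and of 6 recirculation genes 0 as well. Cd69, which holds cells in tissue by blocking S1pr1, was 368 CPM in Ctrl and 522 in CL (log2 ratio 0.50, 0.21 to 0.81), and S1pr1 itself 65.7 and 119 (0.86, 0.17 to 1.61). Ccr7, the receptor for entry into lymph nodes, was 75.6 and 47.4 CPM (-0.67, -1.39 to 0.09), and 1 Ctrl cell held 14 of its 23 UMIs there. Cxcr6 was 108 and 120 CPM, and Rgs1 1933 and 1549. Zfp683, the Hobit factor of resident cells, had 1 UMI in Ctrl and 0 in CL. Il7r, the survival receptor of memory cells, was 49.3 and 85.7 CPM.

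The inhibitory receptors were low. Pdcd1 was 69.0 CPM in Ctrl and 46.6 in CL and Ctla4 78.9 and 74.9, while Lag3 had 7 and 5 UMIs and Tigit 1 and 11. Their list of 8 genes summed to 266 and 240 CPM, a log2 ratio of -0.15 (-0.51 to 0.23). Of 10 cytokine and chemokine receptors compared 0 were past 2-fold, with Ifngr1, the interferon gamma receptor, at 1180.0 and 905 CPM and Il18rap, part of the IL-18 receptor, at 72.3 and 132. Ikzf2, counted in the regulatory list, was 342 and 153 CPM (log2 ratio -1.16, -1.51 to -0.80). Foxp3 and Il10 had 0 UMIs in both libraries. The innate-like list summed to 72.3 and 41.6 CPM (22 and 50 UMIs), in which Tcrg-C1 had 8 and 4 UMIs and Il17a 0 and 20, the latter from 3 cells.

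Interferon, MHC class I and division genes gave few calls. Of 2 type I interferon response genes compared 1 was 2-fold higher in CL, Zbp1, a nucleic-acid sensor, at 32.9 and 73.2 CPM (log2 ratio 1.16, 0.21 to 2.26), and the list sum of 283 and 410 CPM stood against 225 and 341 in empty droplets. The interferon gamma response sum was 973 and 952 CPM (-0.03, -0.22 to 0.16) and the MHC class I sum 10528 and 10251 (-0.04, -0.09 to 0.02). Immediate early and dissociation stress genes summed to 5860 and 4553 CPM (-0.36, -0.44 to -0.29), under the 14252 and 12654 CPM of empty droplets. Cell division genes summed to 1160 and 1337 CPM (0.20, 0.04 to 0.37).

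A small part of the CD8 T cells was dividing. Cells with at least 2 UMIs of Mki67 and Top2a together were 5 of 54 in Ctrl (9.26%, 3.08 to 20.3%) and 25 of 213 in CL (11.7%, 7.74 to 16.8%). They were deep cells, with medians of 10515 and 9883 UMIs against 4911 and 4533.5, and at equal depth the counts were 1 of 48 and 16 of 192. They held Pclaf, a replication clamp partner, at 508 and 448 CPM against 4.18 and 7.46 in the others, and Tubb5 at 1861 and 2353 against 159 and 233. Ccl5 took a smaller part of their larger totals, 6352 against 20591 CPM in Ctrl and 11414 against 22274 in CL. Per cell this was a mean of 82.6 against 101 Ccl5 UMIs in Ctrl and of 120.3 against 111 in CL.

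Beyond the lists, the highest ratios in CL were Gzmm, Ddhd2 (16.4 and 58.2 CPM), Hist1h4d, Togaram1, Phf11b (19.7 and 54.9), Ezh2 (26.3 and 73.2), Rgs16, Hist1h1b, Klrg1 and Lilr4b (29.6 and 74.9). Rgs16, a signalling brake induced on activation, was 55.9 and 150 CPM (log2 ratio 1.42, 0.70 to 2.23). The lowest were Klra5 (78.9 and 9.98), Ccl3, Swap70, Car2, Klra7, Fcer1g, Cbarp, Cd7, Xcl1 and Ier5l (75.6 and 28.3). The Fcer1g-positive cells held all 24 and 12 Klra5 UMIs, all 30 and 32 Klra7 UMIs, and in Ctrl 16 of 23 Swap70 and 20 of 28 Car2 UMIs. Cd7, a surface protein of T and NK cells, was 444 and 161 CPM (-1.46, -1.78 to -1.13). In the library where they were lower, Togaram1, Swap70, Car2, Cbarp, Ccl3 and Fcer1g were under 2 times their empty-droplet level, as were Ddhd2 (16.4 against 11.2 CPM), Hist1h4d and Ezh2 (26.3 against 16.7).

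To see what sets CD8 T cells apart from the other lymphocytes, the UMIs of each class were added up within a library and compared by edgeR's quasi-likelihood test with the library as a block, over 3116 genes and n = 2 libraries of different treatment. Genes used by a class rule were left out, but NK cells were required to lack Cd3, so T-cell receptor genes are tied to that choice. The map of gene levels by class shows the main genes. CD4 T cells in Ctrl rest on 5 cells and Trdc T cells there on 7, and 1 of the 10 Ctrl NK cells held fibroblast transcripts, with Dcn at 1948 CPM.

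**Figure D4:**
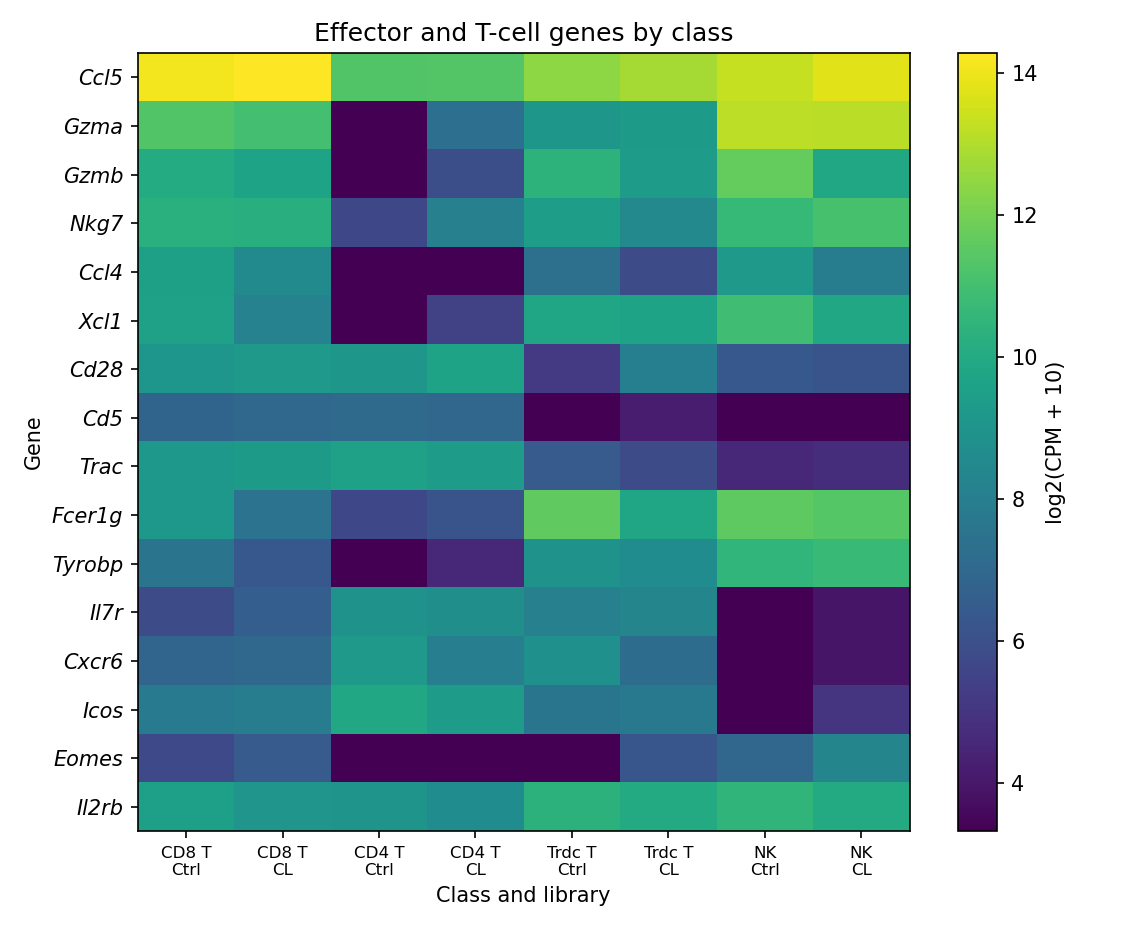
Level of effector and T-cell genes as log2(CPM + 10) in the summed cells of each class and library (columns), where a lighter colour is a higher level. Ccl5 is highest in the CD8 T columns, Gzma in the NK columns, Cd28 and Trac in the CD8 T and CD4 T columns, and Fcer1g and Tyrobp in the NK and Trdc T columns.

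Against CD4 T cells, 24 genes were higher (0.770% of those tested) and 17 lower (0.546%) at an adjusted p under 0.05. DESeq2 called 10 and 10, and a fit of only these 2 classes 34 and 49, so the balance turned. Effector genes led the higher side. Ccl5 was 17549 and 19894 CPM in CD8 T cells of Ctrl and CL against 2491 and 2625 in CD4 T cells (log2 fold change 2.99, SE 0.15, edgeR adjusted p = 4.93e-18). Gzma was 2531 and 2065 against 0 and 149 CPM (adjusted p = 2.02e-11), Gzmb 1049 and 819 against 0 and 52.4 (0.00015) and Nkg7 1226 and 1213 against 42.2 and 266 (2.26e-05). Ccl4, at 746 and 366 CPM, had 0 UMIs in the CD4 T cells of both libraries. Of the cytotoxic granule list 5 of 10 tested genes rose and 0 fell, of chemokines and cytokines 3 of 5 rose (Ccl4, Ccl5 and Xcl1), and of NK receptors 5 of 10 rose (Klrc1, Klrc2, Klrd1, Klre1 and Tyrobp). Among other genes higher were Ly6c2, a surface marker of memory CD8 T cells, at 822 and 972 against 127 and 39.3 CPM, Cd7 and Bend4. Much of Tyrobp, Xcl1 and Cd7 lay in the Fcer1g-positive cells. In the other CD8 T cells Tyrobp was 0 and 7.41 CPM, against 0 and 13.1 in CD4 T cells. There Xcl1 was 369 and 69.5 against 0 and 34.9, and Cd7 200 and 67.6 against 0 and 13.1. All 5 NK receptor calls and those of Ctsw and Bend4 were lost with DESeq2, and those of Gzmb (adjusted p = 0.24) and Cd7 without the library block.

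Of the regulatory and helper list 2 of 5 tested genes were lower than in CD4 T cells (Tnfrsf4 and Icos) and 3 were not called. Tnfrsf4, the co-stimulatory receptor OX40, was 9.86 and 3.33 CPM against 465 and 240.3 (log2 fold change -5.71, SE 0.64, edgeR adjusted p = 5.64e-08), and Tnfsf8, the CD30 ligand, 9.86 and 4.16 against 1562 and 105, a call lost without the library block (adjusted p = 0.40). Ramp3, a partner of the calcitonin-like receptor, was 145 and 125 against 1942 and 1031 CPM. Maf, a helper-cell transcription factor, Il7r, Furin and Tbc1d4 were also lower. Il7r was 49.3 and 85.7 against 465 and 432 CPM. The residency receptor Cxcr6 was 108 and 120 against 591 and 245 (log2 fold change -1.43, adjusted p = 0.0313), a call lost with DESeq2 (adjusted p = 0.35), without a filter (0.24) and without the library block (0.13).

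Against Trdc T cells, 43 genes were higher (1.38%) and 73 lower (2.34%), with 16 and 41 by DESeq2 and 65 and 114 when only the 2 classes were fitted. Of 13 receptor-complex genes 5 were higher (Trac, Trbc2, Cd5, Cd6 and Cd28) and 8 were not called. Trac was 565 and 609 CPM against 77.9 and 48.9 (log2 fold change 3.34, SE 0.42, edgeR adjusted p = 1.15e-06). Cd5 was 105 and 121 against 0 and 8.15, and Cd28 526 and 575 against 26.0 and 253. Gzma (2531 and 2065 against 545 and 611), Nkg7, Ccl4, Ccl5 and Ifng were higher as well. Division genes also rose, 3 of 4 tested (Stmn1, Top2a and Birc5), and Pclaf was 112 and 104 CPM against 0 UMIs in 7 and 23 Trdc T cells. Lower were the gamma chain Tcrg-C1 (26.3 and 3.33 against 208 and 269), Socs2, a cytokine-signalling inhibitor (19.7 and 11.6 against 467 and 196), and the granzyme Gzmc. Of 10 NK receptors 2 were lower (Fcer1g and Tyrobp) and 8 were not called. Among 13 stress genes 2 were lower (Junb and Atf3) and 11 were not called. DESeq2 lost the calls of Cd5, Cd6, Cd28, Trbc2, Nkg7, Ifng, Top2a, Birc5, Pclaf and Gzmc. The fit without the library block lost those of Top2a, Gzmc, Fcer1g, Junb and Atf3.

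Against NK cells, 54 genes were higher (1.73%) and 65 lower (2.09%), with 24 and 31 by DESeq2 and 64 and 101 when only the 2 classes were fitted. Bcl11b, the factor that commits cells to the T lineage, was 210 and 194 CPM against 0 UMIs in NK cells (edgeR adjusted p = 6.83e-07), and Cd28, Cd6, Lat and Icos were also higher, 8 of 13 receptor-complex genes in all. Cxcr6 was 108 and 120 against 0 and 5.54 CPM (adjusted p = 0.000325) and S1pr1 65.7 and 119 against 14.01 and 11.1. Of the cytotoxic granule list 3 of 10 tested genes fell, 0 rose and 7 were not called, Gzmb and Nkg7 among them. Prf1 was 52.6 and 32.4 against 378 and 260.4 CPM (log2 fold change -2.97, SE 0.36, adjusted p = 1.94e-07), Gzma 2531 and 2065 against 9445 and 9154 (-2.06, SE 0.19, adjusted p = 4.97e-09) and Serpinb9 270 and 140 against 617 and 382. Of 10 NK receptors 6 fell, among them Tyrobp at 177 and 69.9 against 1471 and 1673. The calls of Klrk1 and Klre1 were lost with DESeq2 (adjusted p = 0.33 and 0.051) and that of Fcer1g without the library block (0.19). Irf8, a transcription factor, was 62.5 and 86.5 against 1864 and 1867. Ccl5 was higher in CD8 T cells (log2 fold change 0.60, adjusted p = 0.00236), a call lost with DESeq2 (adjusted p = 0.13) and without the library block (0.11). The calls of Cxcr6 and S1pr1 were also lost with DESeq2, and that of Serpinb9 without the block.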

How the data were processed

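Mammary single-cell libraries of 1 control (Ctrl) and 1 clodronate liposome treated (CL) group were analysed. The authors deposited raw UMI counts per gene and barcode as unfiltered, unnormalized matrices of 32285 genes that still held the empty droplets. The submitters' processing notes name Cell Ranger 2.1.1 and mm10, while the matrix headers name Cell Ranger 4. The deposited barcode lists did not index the matrix columns, so as many barcodes as each list held (7217 in Ctrl, 10555 in CL), those with most UMIs, were taken as candidate cells. Droplets of 100 to 300 UMIs served as empty droplets. The members and the gene lists were chosen with earlier results of these data known.

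Counts were summed over the cells of a class and library and scaled to CPM. Ratios of CL to Ctrl carry the exact conditional binomial interval and levels the exact Poisson interval at 95%. PCR duplicates were collapsed by UMI, and intervals cover counting error only. A gene was called at 2-fold, as the text states. Class sums were tested with edgeR 4.0.16 (TMM, filterByExpr, robust glmQLFit) in R 4.3.3, on 8 sums of 4 classes with the library as block, with Benjamini-Hochberg adjustment over all genes tested and a threshold of 0.05. The block takes up the difference between the 2 libraries, which are of different treatment. The p-values thus measure how far class differences varied between them, with a spread estimate shared by the 4 classes. They do not measure variation between animals. DESeq2 1.42.0 was an alternative. A fitted fold change of a gene at 0 in a class depends on the prior count and is not printed as a bound. The edgeR test and the ratio interval were checked on simulated counts, and DESeq2 was not.

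Beyond the lists, the 10 highest and 10 lowest ratios of CL to Ctrl were named, and for each class contrast genes were taken from the 8 highest and 8 lowest fold changes past the threshold, with the same direction in both libraries and at least 100 CPM in the higher class. Mitochondrial, ribosomal, haemoglobin, Xist, Gm and Rik genes were left out. Genes inside Fcer1g-positive and dividing cells, and the values without Fcer1g-positive or richest cells, were chosen after the values were seen. The free RNA share came from Krt5, Krt19, Csn3, Wfdc18, Ltf and Lcn2. Doublets were scored with Scrublet in scanpy 1.11.5 and left in: 1 CD8 T cell of Ctrl and 0 of CL were above the Ctrl threshold, which was used for both since the automatic one had marked 0 of 9335 cells in CL. Comparisons of cell shares at equal depth used cells thinned to 2943 UMIs. Counts of near-identical genes (the Klra, Gzm and H2 families, Trbc1 and Trbc2) could be affected by reads that match more than 1 copy. Gene starts and promoters came from RefSeq on GRCm38.p6. Promoters of Ccl5, Tyrobp, Ikzf2, Ccl4 and Cd8b1 are not analysed here. Some members of the gene lists and of the recirculation set were counted in the sums but are not reported here.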

Additional observations from a re-analysis of the deposited data

How the results depend on the processing

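The values are from 1 library per group. Counts of 54 and 213 cells set the precision, and a gene under 20 UMIs could not be compared. No paired analysis was possible because each group has 1 library and the replicate number only names it. Class contrasts rest on 5 CD4 T and 7 Trdc T cells in Ctrl.

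The higher share of CD8 T cells in CL kept its direction under the limits on genes, mitochondrial UMIs, Cd3, Cd4, Cd8, Lyz2 and keratins, without doublets and after thinning, and was -0.0154 as a share of the 4 T and NK classes. Of 226 list sums under alternatives, 192 stayed within their counting interval, 27 moved past it and 7 turned sign past it. The causes were not tested. The sums given below are log2 ratios of CL to Ctrl. With at least 2 Cd8 UMIs, recirculation was 0.62, residency -0.51, cytotoxic granule -0.21, chemokines 0.14 and NK receptors -0.59. With stricter Lyz2 and keratin limits, which left 22 Ctrl and 103 CL cells, cytotoxic granule was 0.69 and NK receptors 0.60, both turned, and chemokines 0.45, inhibitory receptors -0.75, type I interferon 1.24, stress -0.27 and division 0.0306. With cells thinned before the rule, residency was -0.40, cytotoxic granule -0.23, chemokines 0.0204 and stress -0.54. A mitochondrial limit of 5% gave -0.21 for cytotoxic granule and 0.0053 for chemokines, leaving out doublets 0.16 for chemokines, and the mean of each cell's CPM 0.40 for division. Among alternatives added after the data were seen, leaving out Fcer1g-positive cells turned residency (0.10), cytotoxic granule (0.21), chemokines (-0.083) and NK receptors (0.48), leaving Fcer1g and Tyrobp out of the NK receptor list gave 0.21, and leaving out the richest cell gave -0.0307, 0.14, -0.14 and 0.43 for cytotoxic granule, chemokines, NK receptors and division.

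Genes at least 2-fold higher in CL numbered 18 of 1211 as reported, 47 of 1384 without ribosomal and mitochondrial genes in the total (which raises every CPM), 39 of 2818 without the comparison with empty droplets and 1 of 329 at a minimum of 200 CPM. Those lower numbered 31 and, at 200 CPM, 6. Resident-type cells in CL were 9.39% with a limit of 3 UMIs and 3.29% without Cxcr6. Recirculating-type cells in CL were 12.5% after thinning, 34.7% and 17.4% with limits of 1 and 3 UMIs, and 30.5% without Cxcr6.

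DESeq2 called 10 genes higher and 10 lower than in CD4 T cells (24 and 17 as reported), 16 and 41 against Trdc T cells (43 and 73) and 24 and 31 against NK cells (54 and 65). Fitting only the 2 classes compared gave 49 lower than in CD4 T, 65 higher and 114 lower than in Trdc T and 101 lower than in NK cells. Without a filter 34 were lower than in CD4 T and 103 lower than in NK cells, and without the library block 44 were lower than in Trdc T cells. Over the alternatives, 60 calls of named and list genes were lost and 0 turned direction. DESeq2 lost 36 of 97 genes, among them Klrc1, Klrd1, Klre1, Ctsw and Tyrobp against CD4 T cells, Cd5, Cd6, Nkg7, Ifng and Pclaf against Trdc T cells and Cxcr6, S1pr1 and Klre1 against NK cells. Without the library block 19 of 97 were lost, among them Gzmb and Cd7 against CD4 T cells and Xcl1, Fcer1g and Serpinb9 against NK cells. Klrk1 against NK cells was also lost without a filter.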
